A study of Mus musculus with 12 samples.

Results

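The interaction of cisplatin and brivanib is the difference, for each gene, between what brivanib did in the presence of cisplatin and what it did alone. It was computed on log2(FPKM + 1) as (combination minus cisplatin) minus (brivanib minus vehicle), where FPKM is the number of fragments scaled by transcript length and by the size of the library. A value of 0 means that the log-scale effects of both drugs add up, and a negative value means that the tumours given both drugs lay below that sum. Genes with a mean of 1 FPKM or more across the 12 libraries were members, which gave 14246 of 53801 genes.

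The libraries were made from flank tumours of female C57BL/6 mice aged 6 to 8 weeks, injected with Lewis lung carcinoma (LLC) cells, a mouse lung tumour line, in Matrigel. The 4 groups of 3 libraries were vehicle (replicates 2, 3 and 5 in the labels), cisplatin alone (1, 2 and 3), brivanib alone (2, 3 and 5) and both drugs together (2, 3 and 4), injected into the peritoneum 2 times a week for 4 weeks. Each flank of a mouse carried a tumour, and the labels give 6 mice and 10 to 12 tumours per group. They leave unsaid whether the 3 tumours of a group had different hosts. The p-values rest on the spread among the libraries, which may be partly technical. Libraries that shared a host would not be independent, and the p-values could then be too small. No doses were stated in the labels.

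Cisplatin is a platinum compound that cross-links DNA and is most damaging to dividing cells. Brivanib is an inhibitor of the VEGF and FGF receptor tyrosine kinases, through which endothelial cells and fibroblasts receive growth signals. A flank tumour is a mixture of cancer cells with host fibroblasts, which secrete the collagen-rich matrix, and with vessels and white blood cells, so its RNA reports on all of them, and in bulk RNA fewer cells of a type cannot be told apart from less RNA per cell.

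The recovered depth was 17161000 to 30943000 fragments per library (rounded). In brivanib 5, 37.8% of the fragments lay in ribosomal RNA-like features, against 0.237% to 0.611% in the 11 others, and its FPKM total was 921510 against 471828 to 527657. Markers of the labelled carcinoma were mixed: the keratin gene Krt18 and the lung genes Nkx2-1 and Sftpc were at 0 FPKM in all 12 libraries, and Krt8, Cldn4 and Sftpb reached at most 0.222. The keratin genes Krt19 and Krt7, below the level for testing, varied by group. Krt19 was at 2.58, 0.142 and 1.48 FPKM in brivanib 2, 3 and 5 and at most 0.262 elsewhere. Krt7 was at 0.307 to 0.888 in the cisplatin and combination libraries and at most 0.200 elsewhere. The epithelial genes Cdh1 and Epcam were at 1.12 to 3.23 and 0.395 to 1.65 FPKM, and the lung gene Napsa was at 2.31 to 8.91. The mesenchymal gene Vim stood at 814 to 1236 FPKM. Skeletal muscle markers had a mean log2(FPKM + 1) of 4.36 and 4.02 in brivanib 3 and 5. It was 2.42 in combination 2, and cisplatin 1 and 3 had 1.65 and 1.44. They lay between 0.47 and 0.58 in the other 7 libraries, brivanib 2 among them.

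The combination fell short of the sum of the single effects for 20 genes (0.14% of the 14246), and no gene exceeded it (0%), by limma with Benjamini-Hochberg adjustment over all genes at a threshold of 0.05. At an unadjusted p below 0.05, 950 genes were lower (6.67%) and 480 were higher (3.37%), and the median over all genes was -0.02. By voom on recovered fragments, 5 genes were lower and 0 were higher. The balance at an unadjusted p below 0.05 was opposite by voom, with 351 lower and 1044 higher, and after rescaling to equal totals, with 314 lower and 720 higher. These scalings moved the median of all genes to 0.28 and 0.31. Both used totals that include the ribosomal RNA-like features. With those features left out before rescaling, 728 genes were lower and 751 higher at an unadjusted p below 0.05, and the median was 0.03. The 20 genes shared 1 shape. All 20 rose with brivanib alone, by 0.68 to 3.96 on the log2(FPKM + 1) scale, all 20 were lower in the combination than with brivanib alone, and none passed the test for brivanib added to cisplatin, where their differences lay between -1.39 and 0.29. Over all genes, 243 (1.71%) rose and 15 (0.105%) fell with brivanib alone, and 288 (2.02%) were higher and 263 (1.85%) lower in the combination than with brivanib alone.

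**Figure D1:**
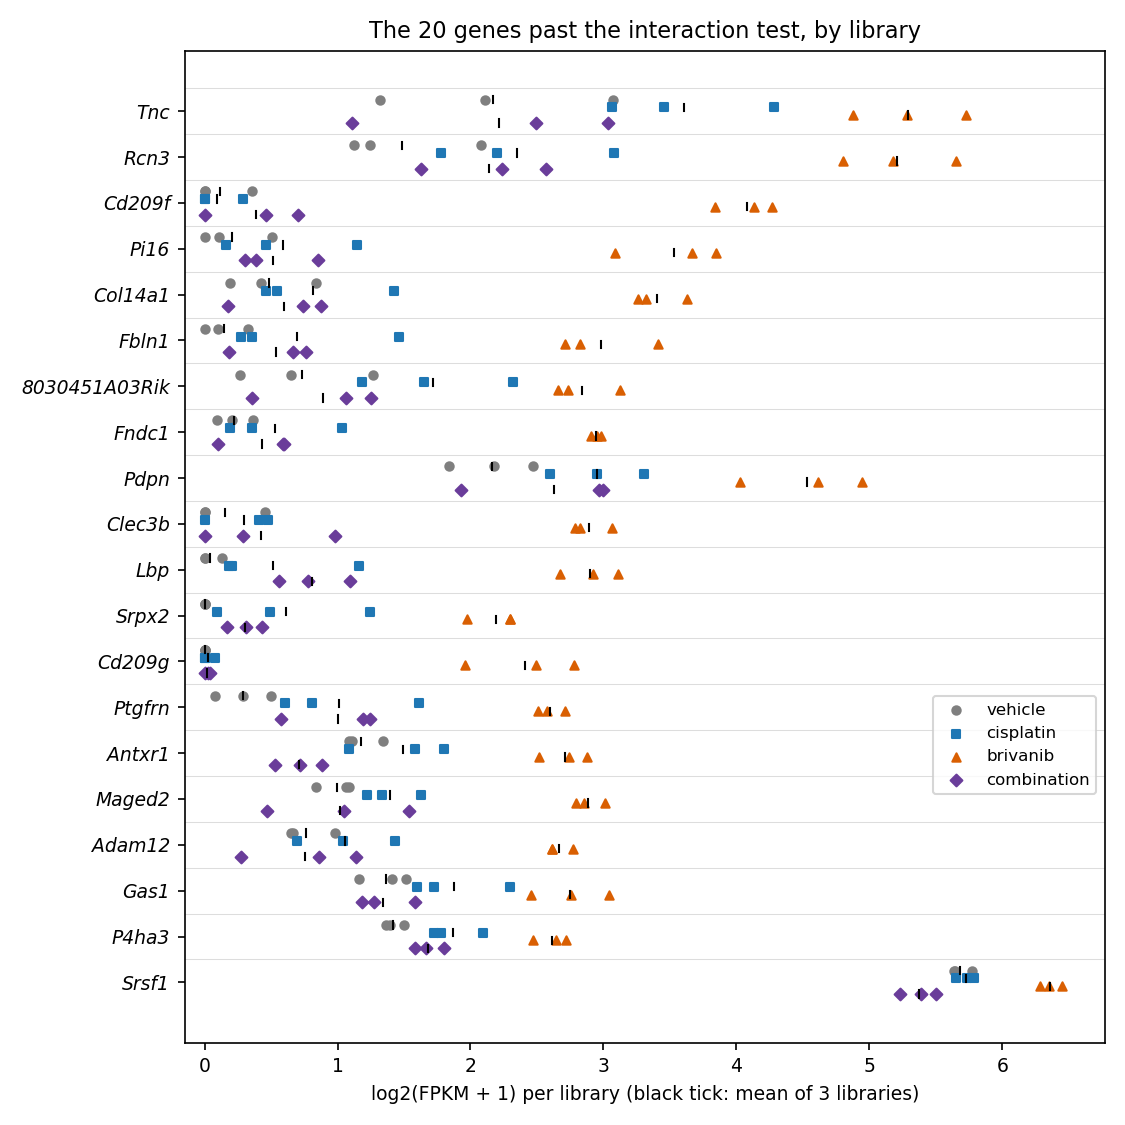
Level of each of the 20 genes past the interaction test in every library. The horizontal axis is log2(FPKM + 1), each point is 1 library, colours and shapes are the 4 groups and black ticks are means of 3 libraries; in all 20 genes the 3 brivanib points lie to the right of the 9 others.

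In each of the 20 genes the 3 brivanib libraries lay above the 9 others, as they did in 396 of all genes (2.78%). The interaction contrast uses the same libraries, so this count describes the genes and tests nothing. Cd209f, Cd209g, Fndc1, Pi16, Col14a1, Clec3b, Lbp, Srpx2 and Fbln1 had means below 1 FPKM in each of the other groups. They reached the level for testing only through the brivanib libraries. Adam12 and Ptgfrn leaned on that group too, with brivanib means of 5.35 and 5.07 FPKM. Adam12 had means of 0.708 with vehicle, 1.13 with cisplatin and 0.743 with both drugs. Those of Ptgfrn were 0.230, 1.11 and 1.05. Cisplatin alone moved none of the 20 past the test, with a median difference of 0.42, and the combination did not differ from vehicle past the test in any of them, with a median of 0.24, where 259 of all genes were higher (1.82%) and 74 lower (0.519%).

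The gene with the smallest p was a C-type lectin. Cd209f (chr8:4102787-4105835, minus strand, GRCm38) and Cd209g (chr8:4134098-4137707, plus strand) are mouse relatives of DC-SIGN, a receptor by which macrophages and dendritic cells bind sugars on pathogens, and they lie 28.263 kb apart. Cd209f was at 16.6, 13.3 and 18.3 FPKM in the brivanib libraries 2, 3 and 5. It was at 0, 0 and 0.277 FPKM with vehicle, at 0.223, 0 and 0 with cisplatin, and at 0.374, 0 and 0.624 with both drugs. The lectin was thus near 0 in all 9 libraries outside the brivanib group, and no group overlapped with brivanib. Its interaction was -3.67 ± 0.31 (SE; limma, Benjamini-Hochberg adjusted p = 0.000939). The log-scale sum of the single effects would have put the combination at 15.7 FPKM, and its observed mean on the same scale was 0.307.

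Cd209g was at 2.89, 5.87 and 4.63 FPKM with brivanib, at 0 in the 3 vehicle libraries and at or below 0.0546 in the 6 others. Its interaction was -2.42 ± 0.31 (limma, adjusted p = 0.0129). Both lectins belong to the same family and their transcript sequences were not compared, so the division of fragments between them may be uncertain. The windows of 250 bases before their RefSeq start sites (RefSeq, GRCm38.p6) are shown because both genes moved together and the windows share a run of 154 identical bases, with 78.1% identity over the whole alignment. The Cd209f window is chr8:4105765-4106014 on the minus strand and the Cd209g window is chr8:4134486-4134735 on the plus strand. Capitals mark every match, on either strand, to any of 6 motifs: a TATA box (TATAAA), a GC box (GGGCGG), an AP-1 site (TGANTCA), a TEAD site (GGAATG), a PU.1 core (GAGGAA) and a SMAD element (CAGACA).
Cd209f: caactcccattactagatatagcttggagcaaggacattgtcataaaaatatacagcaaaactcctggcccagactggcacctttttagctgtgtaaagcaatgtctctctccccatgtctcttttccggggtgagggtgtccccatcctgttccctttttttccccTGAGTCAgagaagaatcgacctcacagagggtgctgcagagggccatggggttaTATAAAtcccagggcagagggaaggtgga
Cd209g: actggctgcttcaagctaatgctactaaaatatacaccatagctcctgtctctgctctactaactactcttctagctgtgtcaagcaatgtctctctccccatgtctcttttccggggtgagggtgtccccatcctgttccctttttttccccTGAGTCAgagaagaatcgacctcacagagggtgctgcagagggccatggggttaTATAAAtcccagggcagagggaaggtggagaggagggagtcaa
In both windows the capitals are an AP-1 match followed by a TATA box match. The RefSeq starts used here lie within the deposited spans of both genes. The TATA box match ends 23 bases before the start of Cd209f and 37 bases before that of Cd209g.

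Of the 20 genes, 15 had a promoter window in the RefSeq table. A TATA box match was found in 5 of the 15 (33.3%), against 12.4% of all 32851 windows of the same length. An AP-1 match was found in 3 of the 15 (20%, the lectins and Srpx2), against 6.75% of all windows. PU.1 core matches were in 5 (33.3%, against 23.3%), SMAD elements in 3 (20%, against 17.1%), GC boxes in 8 (53.3%, against 32.7%) and TEAD sites in 1 (6.67%, against 12.6%). The 2 lectin windows hold their AP-1 and TATA box matches in the run they share, so they are not separate cases in these counts. The TATA box matches of Fndc1, Maged2 and Tnc ended 213, 162 and 120 bases before the start. These are matches of letters and not evidence of binding. The windows of 2 further genes of the 20, Srpx2 (chrX:133908175-133908424, plus strand) and Tnc (chr4:64047016-64047265, minus strand), are given with the same marking.
Srpx2: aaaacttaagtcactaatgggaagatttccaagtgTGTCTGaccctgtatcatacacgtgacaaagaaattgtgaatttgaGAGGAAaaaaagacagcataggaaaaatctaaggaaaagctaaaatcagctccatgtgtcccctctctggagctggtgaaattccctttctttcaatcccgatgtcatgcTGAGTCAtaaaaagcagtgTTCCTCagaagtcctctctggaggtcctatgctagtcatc
Tnc: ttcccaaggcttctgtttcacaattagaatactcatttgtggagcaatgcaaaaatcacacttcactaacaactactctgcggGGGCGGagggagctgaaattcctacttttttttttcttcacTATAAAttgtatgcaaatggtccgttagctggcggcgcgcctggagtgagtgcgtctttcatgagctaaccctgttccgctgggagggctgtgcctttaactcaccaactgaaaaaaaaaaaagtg
Srpx2 carries an AP-1 match outside the lectin pair, and Tnc a GC box and a TATA box match.

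Of the 20 genes, 7 belong to the fibroblast, matricellular, collagen or collagen enzyme lists, which were chosen with earlier results in view: Tnc, Pi16, Col14a1, Fbln1, Clec3b, Pdpn and P4ha3. Tnc (chr4:63959785-64047015) encodes tenascin C, a matrix glycoprotein of wounds and tumour stroma. It was at 37.9, 51.8 and 28.3 FPKM with brivanib alone, at 3.32, 1.5 and 7.42 with vehicle, at 18.5, 7.37 and 9.98 with cisplatin and at 7.21, 1.15 and 4.63 with both drugs. Cisplatin libraries thus lay between vehicle and brivanib except for cisplatin 2, which was just under the highest vehicle library, and the combination overlapped with vehicle. Tnc had the largest estimate of the 20, -4.51 ± 0.74 (limma, adjusted p = 0.0443). The log-scale sum of the single effects would have given 105 FPKM, and the observed mean on the same scale was 3.63. Summed in plain FPKM, the single effects would have given 47.2, against a combination mean of 4.33. The provisional gene model among the 20 overlaps Tnc on the opposite strand, and no strand setting is given, so fragments of the 2 genes cannot be told apart where they overlap.

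Rcn3 (chr7:45082913-45092221) encodes a calcium-binding protein of the endoplasmic reticulum that takes part in collagen secretion. It was at 49.2, 35.1 and 26.9 FPKM with brivanib, at 1.18 to 3.23 with vehicle, at 2.42 to 7.44 with cisplatin and at 2.08 to 4.94 with both drugs. The brivanib libraries were separate from the 9 others, which overlapped among themselves. The interaction was -3.93 ± 0.52 (limma, adjusted p = 0.0138).

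Pi16, a marker of fibroblasts around vessels, was at 13.4, 7.49 and 11.7 FPKM with brivanib and at most 1.22 FPKM elsewhere, with an interaction of -3.40 ± 0.41 (limma, adjusted p = 0.0129). Col14a1, a collagen that sits on the surface of other collagen fibrils, was at 8.58, 11.4 and 8.98 FPKM with brivanib and at most 1.69 elsewhere (-3.13 ± 0.41, limma adjusted p = 0.0129). Fbln1, the elastic fibre protein fibulin 1, was at 9.66, 6.07 and 5.56 FPKM with brivanib and at most 1.75 elsewhere (-3.00 ± 0.45, limma adjusted p = 0.0275). In these 3 genes the highest library outside brivanib was cisplatin 1 each time. Fndc1, a secreted protein with fibronectin type III domains, stood at 6.9, 6.72 and 6.5 FPKM with brivanib and at most 1.05 elsewhere. Its interaction was -2.82 ± 0.33 (limma, adjusted p = 0.0129).

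Clec3b, which encodes tetranectin, a plasminogen-binding protein, had an interaction of -2.61 ± 0.37, and Srpx2, a secreted ligand of the urokinase receptor, one of -2.50 ± 0.37. Their limma adjusted p-values were 0.0245 and 0.0275. Srpx2 was at 0 FPKM in all 3 vehicle libraries. Lbp, which carries bacterial lipopolysaccharide to its receptor complex, was at 6.58, 5.37 and 7.62 FPKM with brivanib and at most 1.23 elsewhere (-2.56 ± 0.38, limma adjusted p = 0.0275). Pdpn encodes podoplanin, a membrane glycoprotein of lymphatic endothelium and of activated fibroblasts. It was at 23.4, 15.3 and 29.7 FPKM with brivanib, 2.58 to 4.53 with vehicle, 5.04 to 8.89 with cisplatin and 2.8 to 6.99 with both drugs (-2.68 ± 0.45, limma adjusted p = 0.0479).

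A further 7 named genes passed and were picked out after their values were seen, since the naming rule took the 12 largest. Antxr1, a collagen-binding receptor, had an interaction of -2.31 and lay lower in the combination than with vehicle, without overlap, at 0.646, 0.442 and 0.846 FPKM against 1.12, 1.53 and 1.16. Ptgfrn, a membrane protein that associates with tetraspanins, had -2.32, the MAGE family gene Maged2 had -2.26 and the metalloprotease gene Adam12 had -2.20. Gas1, a membrane-anchored co-receptor for hedgehog ligands, had -1.92, and P4ha3, a catalytic subunit of collagen prolyl hydroxylase, had -1.38.

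Srsf1, a splicing factor of the SR family, was the splicing gene among the 20. Its gene FPKM was 80.6, 86.3 and 76.7 with brivanib, 48.7 to 53.5 with vehicle, 49.3 to 54.2 with cisplatin and 36.5 to 44.3 with both drugs, below every other library, and its interaction was -1.03 ± 0.13 (limma, adjusted p = 0.0129). The fragments recovered for the gene overlapped between groups, at 3478 to 4602 with brivanib and 2025 to 4417 with both drugs. By voom on these fragments the interaction was -0.18, for its most abundant transcript it was -0.33, and for the transcript next in abundance it was -2.42 ± 0.60 (limma, adjusted p = 0.352). After rescaling to equal totals the gene was at -0.66 (limma, adjusted p = 0.712). In the other 19 genes, the lowest brivanib library held more recovered fragments than the highest other library.

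**Figure D2:**
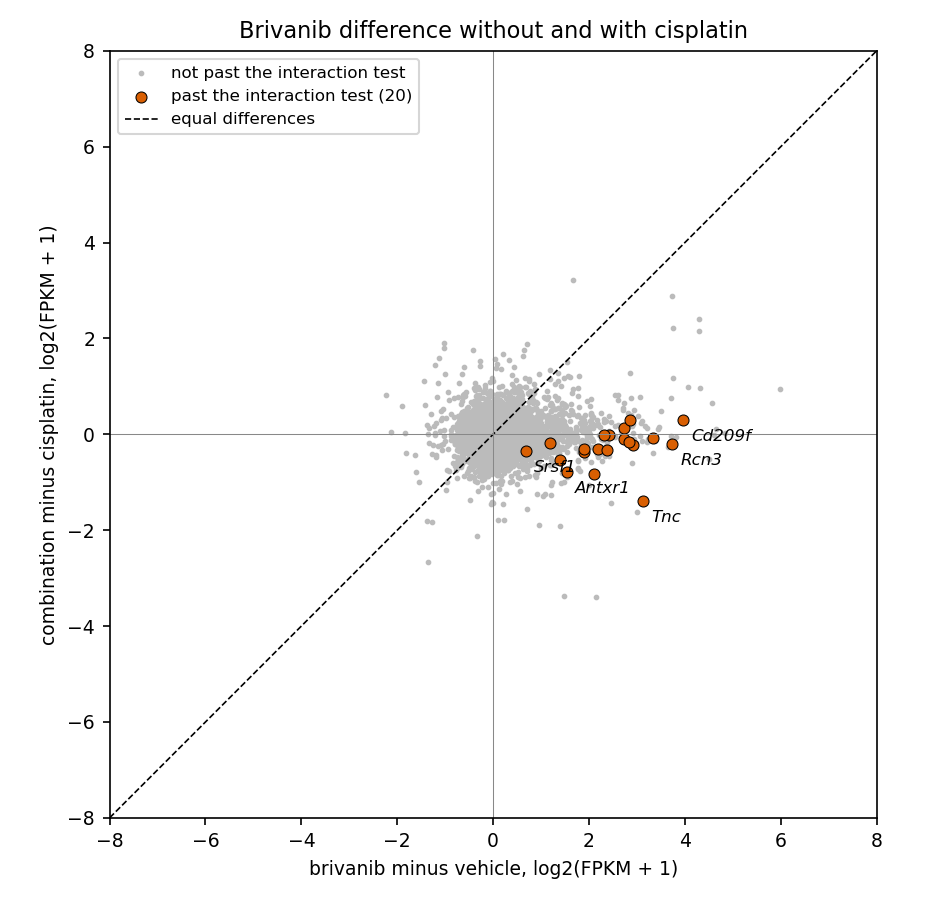
Difference made by brivanib without cisplatin (horizontal) and with cisplatin (vertical), both in log2(FPKM + 1), for the 14246 genes. Points on the dashed line have no interaction; the 20 genes past the test lie to the right of 0, from 0.68 to 3.96, and near 0 on the vertical axis, from -1.39 to 0.29.

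The wider set of brivanib-responsive genes was looked up in the combination against cisplatin, which shares no library with brivanib against vehicle. The look-up was not fully separate, since all 12 libraries set the level for testing and the spread in the fit. Genes that reached that level only through the brivanib libraries were low elsewhere and could differ little there. The 243 genes that rose with brivanib alone had a median difference of 1.60 against vehicle. That value is likely raised by choosing the genes in the same comparison. In the combination against cisplatin the same 243 had a median of 0.03, with 130 above 0 and 113 below, and none passed the test. The median over all genes in that comparison was -0.02. No gene at all passed for brivanib added to cisplatin by limma, with 401 higher (2.81%) and 559 lower (3.92%) at an unadjusted p below 0.05. By voom, 0 were higher and 2 lower. The 15 genes that fell with brivanib alone, with a median of -0.69, had a median of -0.04 in the combination against cisplatin.

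The reverse look-up, with the same limits of choice, asked whether cisplatin genes depended on brivanib. The 17 genes that rose with cisplatin alone (0.119%) had a median of 0.85 there and of 0.48 in the combination against brivanib, where 15 of 17 were above 0 and 8 passed the test. The 10 that fell with cisplatin (0.0702%) had a median of -3.35 there and of -1.90 on top of brivanib, where all 10 were below 0 and 7 passed. Over all genes, the combination against brivanib had 2.02% higher and 1.85% lower past the test, with a median of 0.04. In the comparison used for the brivanib look-up no gene passed, so the passing counts of the 2 look-ups are not comparable. The fall included erythroid genes: Hbb-bs, an adult globin, was at 655 to 1245 FPKM with vehicle, 0 to 32.9 with cisplatin, 180 to 1209 with brivanib and 0 in the 3 libraries with both drugs, and its interaction was -1.30 ± 1.42 (limma, adjusted p = 0.816).

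Gene lists were described by their counts and medians beside those of all genes, since their members were chosen with earlier results in view. At an unadjusted p below 0.05, 6.67% of all genes were lower and 3.37% higher, the shares for every list count below. By voom, the only list member past the test was 1 acute phase gene. Of 19 fibroblast markers tested, 4 were lower past the test (Pi16, Fbln1, Pdpn and Clec3b), 13 had an unadjusted p below 0.05 in the lower direction (68.4%, against 6.67% of all genes), and the median was -1.46. Of 19 matricellular and elastic fibre genes, 2 passed (Tnc and Fbln1), all 19 estimates were negative and the median was -1.85. Of 18 collagen chains, Col14a1 passed and the median was -1.27. These 3 medians kept their sign in all 30 alternative settings, ranging from -1.84 to -1.03, from -2.71 to -1.54 and from -1.49 to -0.91.

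In 10 of the 18 collagen chains, Col14a1 among them, the brivanib libraries lay above the 9 others, against 2.78% of all genes. Col1a1, the main chain of fibrillar collagen, was at 482, 227 and 233 FPKM with brivanib, 2.63 to 30.1 with vehicle, 15.7 to 75.6 with cisplatin and 8.94 to 50.8 with both drugs. Brivanib stood apart from the other groups, but the spread within groups was wide, and the interaction was -4.82 ± 1.18 (limma, adjusted p = 0.157). Col6a3, with -2.50 (adjusted p = 0.0668), and Col12a1, with -3.25 (0.0711), were close to the threshold by limma. So was Loxl1, an enzyme that cross-links elastin and collagen, with -3.09 (0.0668). Of 19 collagen crosslinking and hydroxylating enzymes, P4ha3 passed and the median was -0.41. In the lower direction 11 had an unadjusted p below 0.05, against 6.67% of all genes. Sparc, a collagen-binding glycoprotein, was at 420 to 619 FPKM with brivanib and 95.5 to 260 in the other groups (-1.85, limma adjusted p = 0.0711).

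Contractile markers had negative estimates as well. Tagln and Acta2, smooth muscle genes that activated fibroblasts also express, had interactions of -2.61 (limma adjusted p = 0.0765) and -2.63 (0.122), but the 11 pericyte and smooth muscle markers as a list had a median of -0.41 and none passed. In the TGF-beta pathway, the main inducer of matrix genes in fibroblasts, 0 of 17 genes passed by limma, 4 had an unadjusted p below 0.05 in the lower direction and the median was -0.11, turning positive after rescaling to equal totals and by voom. Its receptor gene Tgfbr2 was at -0.89 ± 0.19 (limma, adjusted p = 0.0983).

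White blood cell lists differed in the sign of their medians. Of 19 macrophage markers, Cd209f passed and the median was -1.17. In the lower direction 9 had an unadjusted p below 0.05, against 6.67% of all genes. Cd163, the scavenger receptor for haemoglobin, was at 7.54 to 12.5 FPKM with brivanib, 0.23 to 0.96 with vehicle, 1.13 to 7.47 with cisplatin and 3.59 to 7.37 with both drugs. Cisplatin 1 came within reach of the lowest brivanib library, and the interaction was -2.11 ± 0.62 (limma, adjusted p = 0.25). In 7 mast cell markers the median was -2.01, 4 had an unadjusted p below 0.05 in the lower direction (6.67% of all genes) and none passed. Tpsb2, a mast cell tryptase, was at 4.36 to 9.08 FPKM with brivanib and at most 1.96 in any other library (-2.11 ± 0.45, limma adjusted p = 0.104), and Cpa3 and Mcpt4, other mast cell proteases, were at -2.01 and -2.41.

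Of 9 genes for MHC class II presentation, none passed by limma and the median was -1.14. In the lower direction 6 had an unadjusted p below 0.05, against 6.67% of all genes. H2-Ab1 was at 19.8 to 41 FPKM with brivanib and 2.56 to 11.7 elsewhere (-2.18 ± 0.67, limma adjusted p = 0.268). Genes of the alternative myeloid programme had a median of -1.14 over 14 genes, with Il4ra at -1.25 and Il13ra1, a partner chain of that receptor, at -1.16. Chil3, a secreted chitinase-like protein of that list, went the other way at 1.19 ± 0.65 (limma, adjusted p = 0.58). The 22 chemokines of their list had a median of -1.06 and 17 complement genes one of -0.99, with none past the test in either by limma. Cxcl14, a chemokine of fibroblasts, had -4.55 ± 0.86 (limma, adjusted p = 0.0711), and complement factor Cfb had -3.00 ± 0.56 (0.0711). Saa3, an acute phase gene, was at 162, 27.3 and 120 FPKM with brivanib and at most 9.23 elsewhere, with the most negative estimate of its list, -5.03 ± 1.18 (limma, adjusted p = 0.128).

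Cytotoxic and NK cell markers were on the other side of 0, with 14 of 15 estimates positive and a median of 0.30, but none passed by limma and 1 had an unadjusted p below 0.05. The lowest median over the settings was -0.03. The NK receptor gene Klrb1c was at 0.94 ± 0.37 (limma, adjusted p = 0.403). Gzmb and Prf1, which encode the granzyme and perforin of killer cells, were at 0.77 and 0.70 (limma adjusted p = 0.682 and 0.7), and both estimates were negative when brivanib 3 and 5 were left out. Ccl5, a T cell and NK cell chemokine, was at 28.1, 14.8 and 11.2 FPKM with both drugs and 6.24 to 11.4 in the other groups, overlapping in 1 library (1.10 ± 0.44, limma adjusted p = 0.416).

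**Figure D3:**
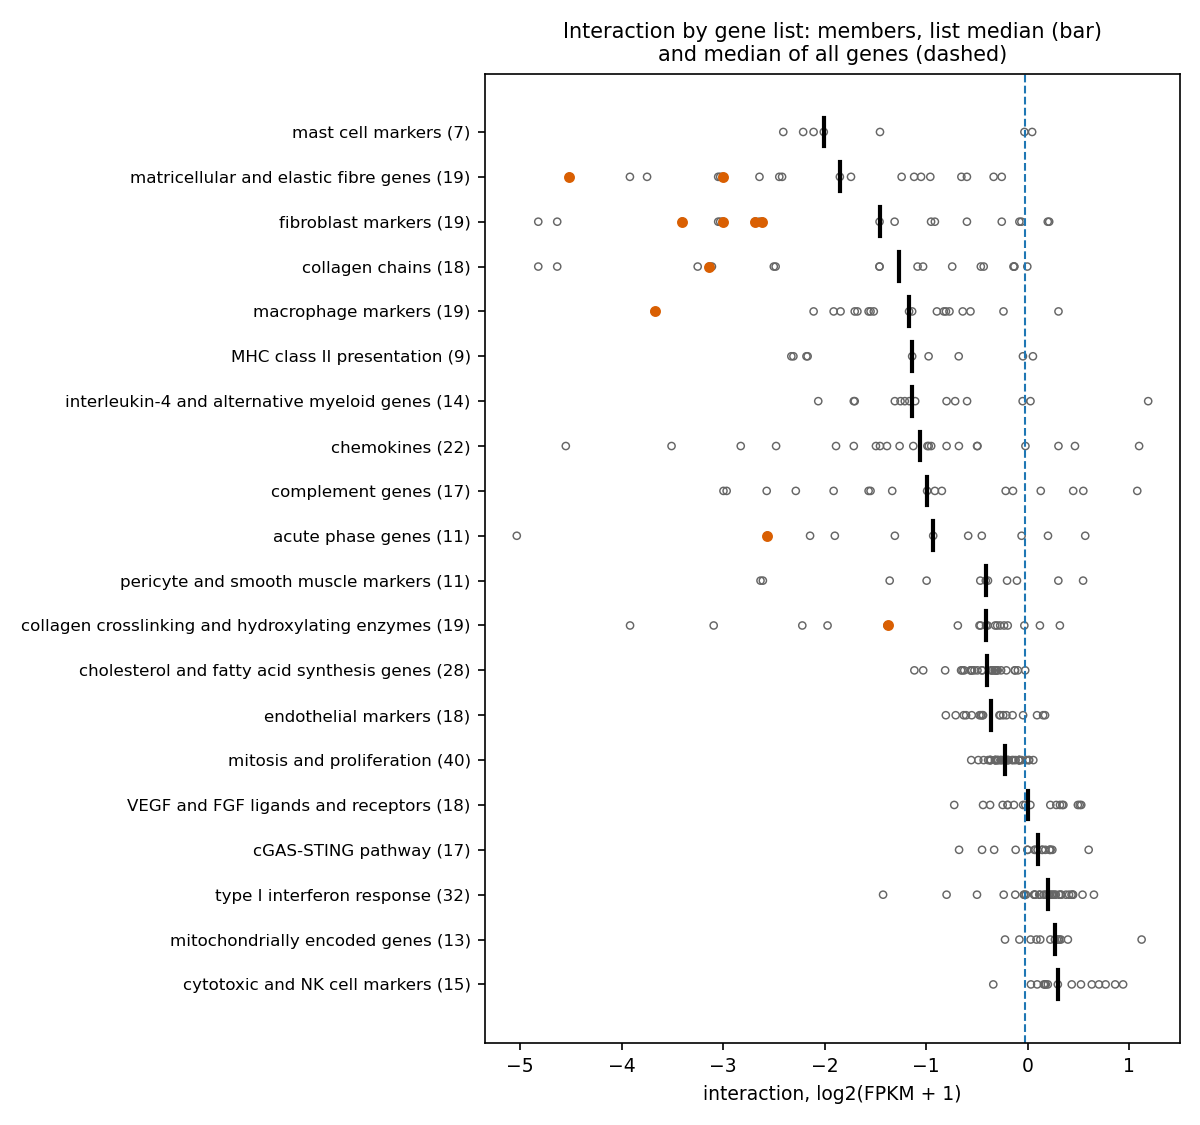
Interaction in log2(FPKM + 1) for members of 20 gene lists, with the number tested in brackets. Open circles are members not past the test, filled orange circles are members past it, black bars are list medians and the dashed line is the median of all genes at -0.02; matrix, fibroblast, mast cell and macrophage lists lie left of the line and cytotoxic markers slightly right.

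The series title ties brivanib to the DNA sensor cGAS. The gene for cGAS was below the level for testing, at 0.127 to 0.912 FPKM, with brivanib at 0.423, 0.912 and 0.658 and the combination at 0.227, 0.172 and 0.521, which overlap. Tmem173, which encodes its partner STING, stood at 18.7 to 24.7 FPKM over all 12 libraries and had an interaction of 0.00 ± 0.16 (95% interval -0.35 to 0.36). Of 17 genes of the cGAS-STING pathway, none passed by limma, 1 had an unadjusted p below 0.05 and the median was 0.10. Ifi204, a DNA sensor of the IFI200 family, was at 0.60 ± 0.35 (limma, adjusted p = 0.613).

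Of 32 type I interferon response genes, 24 estimates were positive, the median was 0.20 and none passed by limma, with 2 below an unadjusted p of 0.05 in the lower direction. The lowest estimate was that of Ifi27l2a, at 52 to 96.6 FPKM with brivanib, 33.4 to 55.3 with both drugs and 15.9 to 29.1 in the vehicle and cisplatin groups, so that brivanib and the combination overlapped (-1.42 ± 0.33, limma adjusted p = 0.122). The list medians of brivanib without and with cisplatin were 0.40 and 0.57. MHC class I genes had a median of 0.06 over 20 genes. Psmb8, a subunit of the immunoproteasome, was at -1.46 (limma adjusted p = 0.0711), and Tap2, a peptide transporter chain, at 0.62 (0.353).

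No gene was higher than the sum past the test, and the 5 with the smallest p in that direction are given as values. Ifi207, a further member of the IFI200 family, was at 55.6, 78 and 44.6 FPKM with both drugs, 30 to 38.9 with cisplatin, 13.5 to 19.1 with vehicle and 7.28 to 11.3 with brivanib. These 4 groups did not overlap, and the order of the single drugs was opposite, brivanib below and cisplatin above vehicle. The interaction was 1.51 ± 0.31 (limma, adjusted p = 0.0898), and it passed after rescaling to equal totals (1.85, adjusted p = 0.0218), a setting that moved the median of all genes to 0.31. Masp1, a protease of the lectin pathway of complement, was at 27.3 to 43 FPKM with both drugs and 12.2 to 17.3 with brivanib, with vehicle and cisplatin between them (1.08 ± 0.25, limma adjusted p = 0.122). Nbdy, Arglu1 and Ankhd1 had 0.63, 0.59 and 1.05. In Arglu1, a splicing regulator, each drug alone and the combination lay below vehicle, at 24.2 to 31.3 against 35.8 to 36.6 FPKM, so that the positive value goes with differences below vehicle that did not add up.

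Genes of the signalling and repair pathways that concern these drugs had small estimates. Of 18 VEGF and FGF ligands and receptors, 9 were above 0 and 9 below, the median was 0.00, none passed by limma and 0 had an unadjusted p below 0.05 in either direction. The receptor genes Kdr and Fgfr1 were at -0.44 ± 0.30 and 0.32 ± 0.22. Endothelial markers had a median of -0.36 over 18 genes, with Plvap at -0.80 and Tek, the angiopoietin receptor, at -0.71 (limma adjusted p = 0.433 and 0.461). Of 43 DNA crosslink and damage repair genes, 20 were above and 23 below 0 with a median of -0.02, and 26 p53 targets had a median of 0.07. None of either list passed by limma, with 4 and 1 below an unadjusted p of 0.05. Wee1, a kinase that holds cells before mitosis, was at 28.3 FPKM on average with cisplatin and 27.2 with both drugs, against 13.7 with vehicle and 12.9 with brivanib, and its interaction was 0.06 ± 0.22.

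Proliferation and lipid synthesis lists had small negative medians. Of 40 mitosis genes, 37 estimates were negative with a median of -0.22, and none passed by limma with 3 below an unadjusted p of 0.05, but the median turned positive after rescaling to equal totals, by voom, with the muscle covariate and without brivanib 3 and 5. Plk1 was at -0.55 and Anln at -0.43 (limma adjusted p = 0.461 and 0.278). All 28 tested genes of cholesterol and fatty acid synthesis had a negative estimate, with a median of -0.40, none past the test by limma and 1 below an unadjusted p of 0.05. The list's median for brivanib was 0.01 without cisplatin and -0.38 with it. The median of the lipid synthesis list reached 0.06 in its highest setting, when brivanib 3 and 5 were left out. In the fatty acid oxidation list, Cpt1a, which brings fatty acids into mitochondria, was at 62.7 to 97.8 FPKM with both drugs and 23.8 to 54.6 elsewhere (0.86 ± 0.31, limma adjusted p = 0.361), and the list median was 0.00.

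**Figure D4:**
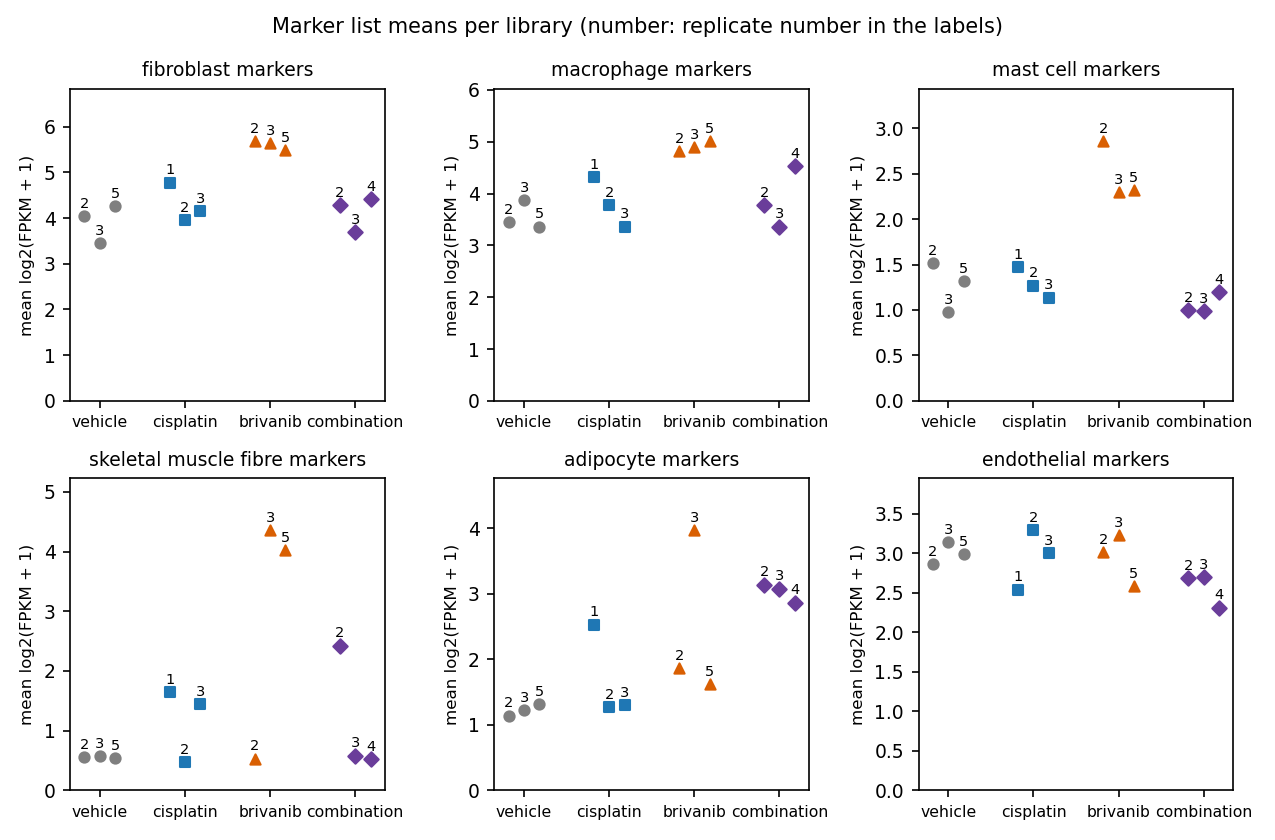
Mean log2(FPKM + 1) of 6 marker lists in each library, by group, with the replicate number beside each point. Fibroblast, macrophage and mast cell means are highest in the 3 brivanib libraries, whereas muscle means are high in brivanib 3 and 5 and not in brivanib 2, and adipocyte means are high in brivanib 3 and the 3 combination libraries.

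Marker means of host cell types and other tissue differed between libraries, in part by group. The mean over fibroblast markers was 5.48 to 5.69 in the brivanib libraries and 3.45 to 4.77 in the 9 others, and that over mast cell markers was 2.30 to 2.86 against 0.978 to 1.52. Macrophage marker means were 4.82 to 5.02 with brivanib and 3.36 to 4.53 elsewhere. The fibroblast list holds Pi16, Fbln1, Pdpn and Clec3b and the macrophage list Cd209f, so these means are not separate from the 20 genes. Adipocyte marker means were 2.86 to 3.14 in the combination, 3.97 in brivanib 3, 2.53 in cisplatin 1 and 1.14 to 1.86 in the 7 others. The part of other tissue in the 20 genes was not tested. With the muscle mean as a covariate the median of the 20 estimates was -2.50 and 1 gene passed. With the adipocyte mean it was -2.60 and 18 of the 20 passed, beside -2.59 in the fit without covariates. Muscle markers themselves had a median interaction of -2.58 with none past the test by limma and 4 below an unadjusted p of 0.05, and it was 0.06 without brivanib 3 and 5.

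Transcripts taken singly gave a different set. Of 28610 transcripts, 12 were lower and 3 higher past the test by limma. The transcripts named here were chosen after their values were seen. The 3 higher ones belong to Bnip3l, Hmgn2 and Acap2, none of which passed as a gene. A Bnip3l transcript was at 12.7, 12.8 and 15.2 FPKM in the combination libraries and at most 0.032 in the 9 others (3.87 ± 0.23, limma adjusted p = 0.000247), while the gene as a whole had an interaction of 0.02. An Acap2 transcript was at 7.72, 10.1 and 12.3 FPKM in the combination and at 0 in all others (3.44 ± 0.27, limma adjusted p = 0.00205), with 0.28 for the gene. A Prss23 transcript was at 12.3, 8.85 and 4.86 FPKM with brivanib and listed at 0 in the 9 others. RSEM assigns fragments among overlapping isoforms, so such values carry the uncertainty of that assignment.

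**Figure D5:**
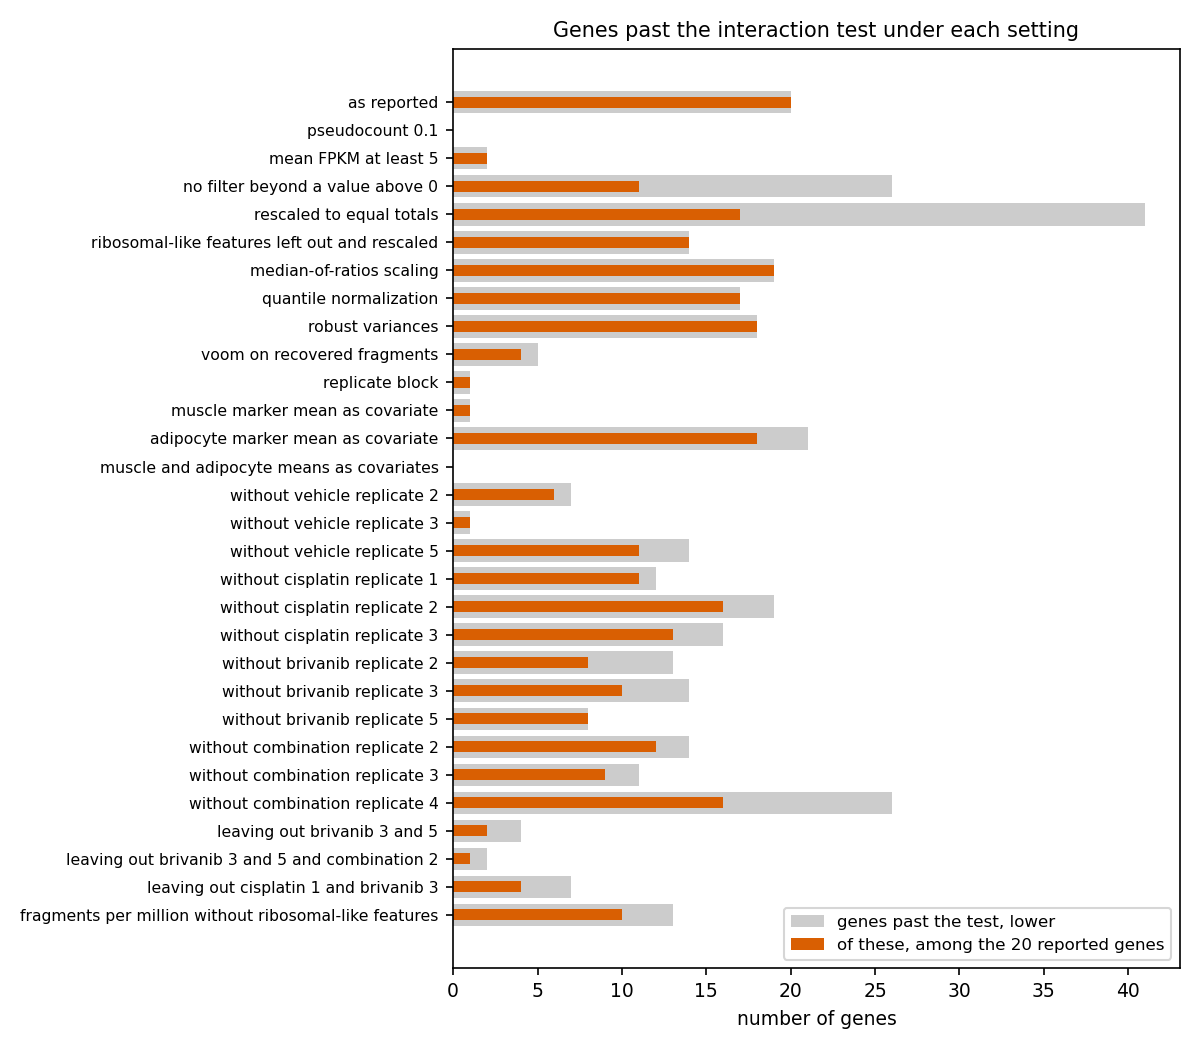
Number of genes lower past the interaction test under each processing setting (grey) and how many of these are among the 20 genes reported (orange). The count is 20 as reported and runs from 0 with a pseudocount of 0.1 to 41 after rescaling to equal totals.

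How many genes passed depended on the libraries and the scale. Without vehicle 3, 1 gene passed, and it was among the 20. Without vehicle 2, 7 passed with 6 of the 20 among them, and without brivanib 5, 8 passed, all among the 20. Without combination 3, 11 passed with 9 of the 20, without cisplatin 1, 12 passed with 11 of the 20, and without brivanib 2, 13 passed with 8 of the 20. With a pseudocount of 0.1 none passed by limma, with 929 lower and 472 higher at an unadjusted p below 0.05. The estimate stayed negative in every setting for each of the 20 genes wherever it was tested. Cd209f lost its call in 3 of 29 alternatives, Pi16 in 7, Antxr1 in 8 and Cd209g in 9 of 29, whereas Tnc lost it in 24 and Pdpn in 27 of 30. Fndc1 lost it in 10, Col14a1 in 12 and Lbp in 13 of 29, and Rcn3 and Srsf1 in 12 of 30. For Srpx2 it was 15 of 28. The call was lost in 17 of 29 for Clec3b, 18 for Fbln1, 20 for Maged2 and 22 each for Adam12 and P4ha3. Gas1 lost it in 24 and Ptgfrn in 25 of 29.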

How the data were processed

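Tumour RNA (Trizol or RNeasy) was sequenced on a BGISEQ-500, per the labels. The authors deposited FPKM per transcript together with transcript lengths in bases. The design text names Bowtie2 as aligner and RSEM for the FPKM. The submitters' processing notes give Bowtie2 2.2.5 and RSEM 1.2.12, also name HISAT and Bowtie, and list mm9 as build. The design text has mm10 instead. Of 135047 deposited transcripts found in GENCODE M21 on GRCm38 (mm10), 98.48% had identical start and end there, so positions are on GRCm38. Of the per-sample columns, 1 matched no label and was not used, and 3 broken lines were dropped.

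FPKM was summed per gene. Fragments were recovered as FPKM times transcript length, which went in whole steps in 100% of values up to 100 fragments (within 0.01). Genes with a mean FPKM of at least 1 were tested on log2(FPKM + 1), which understates changes of low genes, with limma 3.58.1 in R 4.3.3: 4 group means, 12 libraries, 8 residual degrees of freedom, a variance trend, two-sided tests, Benjamini-Hochberg adjustment over 14246 genes and a threshold of 0.05. The procedure was tested on simulated data. Errors are SE.

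Named genes were the 12 largest per direction among those past the test (the 5 smallest p where fewer than 5 passed), up to 3 members per gene list with at least 5 tested members, and a panel of 20 genes; provisional models and pseudogenes were counted but not named. The members, lists and rules were chosen with earlier results of these data known. Alternatives changed the pseudocount, filter, scaling, test, feature, covariates, block and libraries. The panel members not tested had low values. Promoter windows are RefSeq's on GRCm38.p6.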

Additional observations from a re-analysis of the deposited data

Results flagged for a closer look

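By the test of the difference itself, brivanib changed 20 genes differently when cisplatin was given too, all lower in the combination than the sum of the single effects. Leaving aside 1 provisional gene model, the 12 largest differences on the log2(FPKM + 1) scale were -4.51 for Tnc, -3.93 for Rcn3, -3.67 for Cd209f, -3.40 for Pi16, -3.13 for Col14a1 and -3.00 for Fbln1, followed by -2.82 for Fndc1, -2.68 for Pdpn, -2.61 for Clec3b, -2.56 for Lbp, -2.50 for Srpx2 and -2.42 for Cd209g.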

How the results depend on the processing

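The estimates of the 20 genes were negative in all 30 alternatives wherever tested, but the number past the test moved. Genes lower numbered 0 with a pseudocount of 0.1, 2 at a mean FPKM of at least 5, 41 after rescaling to equal totals, 5 by voom on fragments, 12 with transcripts as features, 1 with the muscle mean as covariate and 0 with both tissue means. At a mean FPKM of at least 5, only 4 of the 20 genes were tested. Leaving out 1 library gave 1 to 26 lower and 0 to 2 higher; without vehicle 3 it was 1. Genes higher numbered 3 with no filter, 4 after rescaling to equal totals and 3 with transcripts. Alternatives chosen after seeing the data gave 4 lower and 2 higher without brivanib 3 and 5, 2 lower and 2 higher without combination 2 as well, 7 lower without cisplatin 1 and brivanib 3, and 13 lower in fragments scaled to library size without ribosomal-like features. The cause was not tested. With the replicate block, 1 gene was lower. Deviations of same-numbered libraries correlated at -0.157 to 0.213 over 13 pairs, against -0.232 to 0.231 for other pairs. These ranges overlap, and with 3 libraries per group they cannot show whether the numbers pair the samples. Rescaling to equal totals and voom moved the median of all genes to 0.31 and 0.28. It was 0.03 with ribosomal-like features left out before rescaling.

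Some estimates changed sign, and not all of them were near 0. Those of Gzmb and Prf1 reached 1.30 and 1.24 in their highest settings. Gzmb was at -0.15 and Prf1 at -0.20 with the muscle covariate, -0.30 and -0.37 without brivanib 3 and 5, and -0.28 and -0.30 without combination 2 as well, and Prf1 was at -0.030 with both covariates. With transcripts as features Fgfr1 was at -0.31. Leaving out 1 library, Wee1 ranged from -0.14 to 0.21 and Tmem173 from -0.070 to 0.092. Tmem173 was at -0.0067 with the adipocyte covariate and -0.028 with both. With 3 libraries per group, differences smaller than the printed intervals allow were not detectable.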
